A study of Mus musculus with 8 samples.

Results

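The transcripts of 9 genes that encode growth factor receptors or a sort marker were examined in DC-restricted progenitors (CDPs) from the bone marrow (BM) of high fat diet-fed (HFD) and chow-fed (CF) mice. The genes were chosen by symbol. Flt3, Csf1r (CD115), Kit (c-Kit) and Ly6a (Sca-1) encode the positive and graded markers of the CDP sort, and Csf2ra, Csf2rb, Csf2rb2, Il3ra and Csf3r encode receptor chains for GM-CSF, IL-3 and G-CSF. All 9 were found among the 16119 genes of the count table, and all 9 were among the 15837 tested. The HFD mice (labelled DIO) were C57BL/6 (C57BL/6J in the study's methods) given feed with 60 kcal% fat for 16 weeks, and the CF mice (labelled DIO-Control) were C57BL/6 given 10 kcal% fat and matched for age. Both groups were male and carried no transgene named in the labels. About 50000 lineage-negative cells with intermediate c-Kit, low Sca-1, CD115 and Flt3 on their surface were sorted for each library, and 4 libraries were sequenced per diet. The labels do not say whether a library came from 1 mouse, so the p values measure the spread between these libraries.

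Flt3, CD115 and c-Kit are class III receptor tyrosine kinases, which form dimers on binding their ligands and signal through PI3K, Ras and STAT5. Flt3 ligand drives the generation of DCs, M-CSF acts through CD115 on monocytes and their precursors, and stem cell factor acts through c-Kit on early progenitors and mast cells. The receptors for GM-CSF and IL-3 pair a ligand-specific alpha chain with a beta chain that binds Jak2. Mice carry a beta chain shared by GM-CSF, IL-3 and IL-5 (Csf2rb) and a second one for IL-3 alone (Csf2rb2). The G-CSF receptor, Csf3r, is a homodimer best known from neutrophils and their precursors.

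Csf2rb and Csf2rb2 are near-identical neighbours, and the sequences below show where a single read of 75 bases can and cannot be told apart. On GRCm38, Csf2rb lies at chr15:78325752-78353847 on the + strand and Csf2rb2 at chr15:78282507-78305721 on the - strand. Their coding sequences could be aligned over 2628 bases, of which 125 differed (95.2% identity), and the 896 and 878 residues that they encode were 92.0% identical. The window of 75 coding bases with the most differences, 14, lies in exon 4 of both genes (chr15:78338905-78338979 on + and chr15:78294352-78294426 on -), and capitals mark the bases that differ.
Csf2rb: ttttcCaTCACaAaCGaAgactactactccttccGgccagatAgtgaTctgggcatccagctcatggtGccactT
Csf2rb2: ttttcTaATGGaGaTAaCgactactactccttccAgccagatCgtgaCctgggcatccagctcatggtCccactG
A window in exon 7 (chr15:78341391-78341465 on + and chr15:78291844-78291918 on -) is the same in both.
Csf2rb and Csf2rb2: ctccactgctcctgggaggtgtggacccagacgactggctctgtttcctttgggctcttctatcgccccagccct
Of 1494 such windows inside an exon, 335 (22.4%) held no difference. Over whole transcripts, 7.15% of the 75-base words of Csf2rb and 10.6% of those of Csf2rb2 occurred in the other gene. Counts of this pair are therefore given singly and summed.

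Sequence shared by the other members ran from none to 13.9% of their words. Csf1r (chr18:61100598-61132149, +) overlaps Hmgxb3 on the opposite strand over 873 exonic bases, and 13.9% of its words were shared with it, so its counts are uncertain by that overlap because the strand used in counting is not given. Ly6a (chr15:74994877-74998031, -) shared 6.33% of its words with Ly6c1 and Ly6i. Il3ra (chr14:14346275-14356011, +) overlaps the antisense gene Gm48860 over 46 exonic bases, and 3.13% of the words of Csf3r (chr4:126024550-126044440, +) recurred in other genes. Flt3 (chr5:147330741-147400489, -), Kit (chr5:75574916-75656722, +) and Csf2ra (chr19:61223957-61228429, -) shared no word with another gene.

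Total counts ranged from 28203651 to 48409689 per library. Protein-coding genes took 41.4, 41.9, 39.7 and 38.9% of the counts in HFD and 28.3, 34.1, 33.9 and 42.0% in CF. CF replicate 1 was the lowest in this share, and also for Ly6a, Csf2rb and Csf2rb2. In a fit on protein-coding genes alone the fold changes of these 3 members were 0.35, 0.09 and 0.57 on the log2 scale, against 0.38, 0.13 and 0.61 on all genes. HFD replicate 1 stood apart. A list of 14 neutrophil genes, which include S100a8, S100a9, Ngp and Ltf, summed to 20026 CPM (counts scaled to the TMM-corrected library size) in this library, against 3506, 1272 and 949 in HFD replicates 2, 3 and 4. In CF the list summed to 1942 in replicate 1 and to 6510, 6057 and 5930 in replicates 2, 3 and 4. HFD replicate 1 had the highest value of all 8 libraries for each of the 14 genes, among them Ly6g, the antigen of Gr-1 staining, with 40.2 CPM against 2.23 to 13.1 elsewhere. Erythroid genes also summed highest there, to 713 CPM against 103 to 177 in the other 7 libraries. All libraries were kept, and the fold changes, ratios, lists and correlations that this library moved most are also given without it.

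None of the 9 genes passed the test between HFD and CF. By the quasi-likelihood test of edgeR with Benjamini-Hochberg adjustment over all genes tested, 0 of 9 had an adjusted p below 0.05, and DESeq2 and limma voom also called 0 of 9. Of all genes, 0.423% were called (67 of 15837, all lower in HFD, of which 4 were protein-coding). Of the members, 3 had higher and 6 lower estimates in HFD, and their log2 fold changes had a median of -0.08 against 0.05 over all genes tested and 0.07 over protein-coding genes. Over all genes tested, 9447 of 15837 had higher estimates in HFD, as did 7612 of 11775 protein-coding genes. Counts of higher estimates in the lists below are to be read against these. An unadjusted p below 0.05 was found for 1 of 9, Csf2rb2, against 8.56% of all genes. Csf2rb2 was also the 1 member whose CPM did not overlap between the diets, against 6.16% of all genes. In bulk RNA, fewer cells that express a gene and less RNA of it per cell cannot be told apart, and this holds for each value given here.

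**Figure D1:**
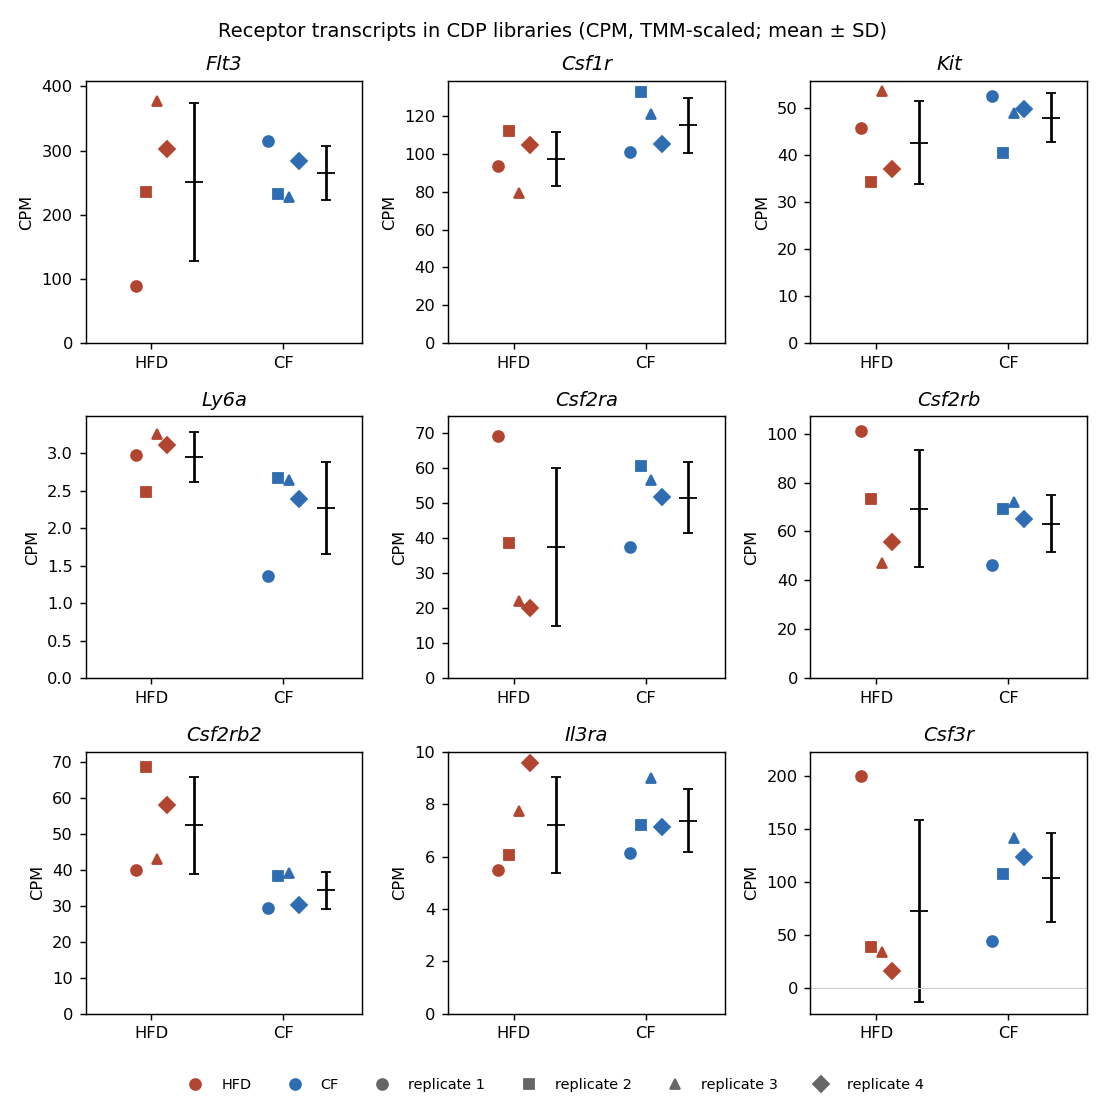
CPM (scaled by TMM factors, linear axis) of each of the 9 genes in the 4 HFD (red) and 4 CF (blue) libraries, with marker shapes for the replicate number and black bars for the mean ± SD of each diet. Only the Csf2rb2 values of the diets do not overlap, and for Csf3r in HFD the SD (85.9) is larger than the mean (72.0), so that its bar reaches below 0.

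Among the receptor tyrosine kinases of the sort, Flt3 varied most. It had 88.8, 235, 378 and 303 CPM in HFD replicates 1 to 4 and 316, 232, 227 and 284 CPM in CF replicates 1 to 4. HFD held both the lowest and the highest library, and the CF values lay between them. The means were 251 ± 123 CPM in HFD and 265 ± 42.5 CPM in CF (SD, n = 4 each), with a log2 fold change of -0.08 (SE 0.37, 95% interval -0.93 to 0.77, edgeR adjusted p = 0.98). Depth did not limit this gene, which had 2768 to 14409 counts per library. The spread came mainly from HFD replicate 1, where Flt3 was 4.26-fold below the highest library, and without that library the estimate was 0.21. Without HFD replicate 3, the highest, it was -0.34. The biological coefficient of variation, which is edgeR's estimate of the spread between replicates beyond counting error, was 37.7% for Flt3 and higher than that of 78.4% of genes (median 25.2% over all genes tested).

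Csf1r, in contrast, was among the steadier genes, although CD115 and Flt3 were both required by the gate. It had 93.6, 112, 79.4 and 105 CPM in HFD and 101, 133, 121 and 105 CPM in CF. The means were 97.4 ± 14.2 and 115 ± 14.7 CPM (SD, n = 4 each), and the ranges overlapped between 101 and 112 CPM. The log2 fold change was -0.24 (SE 0.14, 95% interval -0.56 to 0.08, edgeR adjusted p = 0.75), with a coefficient of variation of 17.9%. Every library stayed within 1.67-fold of every other, and the estimate stayed between -0.32 and -0.15 when any 1 replicate was left out.

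Kit, the receptor for stem cell factor, had 45.6, 34.2, 53.6 and 36.9 CPM in HFD and 52.5, 40.3, 49.0 and 49.7 CPM in CF. The highest and the lowest library were again both HFD. The means of 42.6 ± 8.82 and 47.9 ± 5.25 CPM (SD, n = 4 each) gave a log2 fold change of -0.17 (SE 0.16, 95% interval -0.53 to 0.19, edgeR adjusted p = 0.87). It was -0.08 without HFD replicate 2, the lowest library, and -0.30 without HFD replicate 3, the highest. In HFD replicate 1, where Flt3 was lowest, Kit was near the middle of the libraries. Of the other class III receptor tyrosine kinases listed, Pdgfra was not among the genes of the table, and Pdgfrb changed by an estimated -0.09 on the log2 scale (edgeR adjusted p = 0.98), with the same extremes as Flt3, 5.33 CPM in HFD replicate 1 and 25.0 CPM in HFD replicate 3.

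Ly6a, a GPI-anchored protein and the stem cell marker on which the gate set an upper limit, was the scarcest member. It had 2.98, 2.49, 3.25 and 3.11 CPM in HFD and 1.37, 2.67, 2.65 and 2.39 CPM in CF, from 53 to 128 counts per library. CF replicate 1 was below all other libraries, and HFD replicate 2 lay within the CF range. The means were 2.96 ± 0.33 and 2.27 ± 0.61 CPM (SD, n = 4 each), with a log2 fold change of 0.38 (SE 0.24, 95% interval -0.17 to 0.94, edgeR adjusted p = 0.78), and of 0.20 without CF replicate 1. Of 9 listed neighbours of Ly6a in the Ly6 family, 7 were tested and 0 called, 5 with higher estimates in HFD and with a median of 0.10. Ly6d, which marks lymphoid and plasmacytoid DC precursors, had the lowest p of them (log2 fold change 1.22, edgeR adjusted p = 0.39), followed by Ly6k (1.17, adjusted p = 0.82).

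The chains of the GM-CSF receptor differed between libraries more than between diets. Csf2ra, the alpha chain that binds GM-CSF, had 69.1, 38.7, 22.1 and 20.1 CPM in HFD and 37.5, 60.5, 56.7 and 51.8 CPM in CF. HFD replicate 1 was the highest of all libraries, whereas HFD replicates 3 and 4 were below every CF library. The means were 37.5 ± 22.7 and 51.6 ± 10.1 CPM (SD, n = 4 each), and the log2 fold change was -0.46 (SE 0.38, 95% interval -1.33 to 0.41, edgeR adjusted p = 0.84). Without HFD replicate 1 it was -0.94 (adjusted p = 0.13), and without both replicates numbered 1 it was -1.06 (adjusted p = 0.062), neither of which passed. It was nearer 0 without HFD replicate 3 (-0.28) or HFD replicate 4 (-0.30), the lowest libraries. Over the alternatives the adjusted p of Csf2ra ran from 0.062 to 1.00.

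Csf2rb, the shared beta chain, had 101, 73.1, 47.3 and 55.5 CPM in HFD and 46.4, 69.2, 72.2 and 65.2 CPM in CF. Its highest library was likewise HFD replicate 1, and its lowest was CF replicate 1. The means of 69.3 ± 23.8 and 63.2 ± 11.6 CPM (SD, n = 4 each) gave a log2 fold change of 0.13 (SE 0.24, 95% interval -0.42 to 0.69, edgeR adjusted p = 0.95). The estimate was -0.11 without HFD replicate 1 and 0.0080 without CF replicate 1. Il3ra, the alpha chain that binds IL-3, was low in all libraries, with 5.49, 6.07, 7.74 and 9.56 CPM in HFD and 6.12, 7.19, 9.01 and 7.15 CPM in CF. The HFD range enclosed the CF range, and the log2 fold change was -0.03 (SE 0.21, 95% interval -0.50 to 0.44, edgeR adjusted p = 0.99).

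Csf2rb2, the beta chain for IL-3 alone, had the clearest separation among the members. It had 39.9, 68.7, 43.0 and 58.1 CPM in HFD and 29.5, 38.2, 39.3 and 30.3 CPM in CF. All 4 HFD libraries were above all 4 CF libraries, although HFD replicate 1 exceeded CF replicate 3 by little. The means were 52.4 ± 13.5 and 34.3 ± 5.13 CPM (SD, n = 4 each), and the log2 fold change was 0.61 (SE 0.19, 95% interval 0.18 to 1.05, unadjusted p = 0.011 and adjusted p = 0.29 by edgeR). The estimate stayed between 0.45 and 0.72 when any 1 replicate was left out, and the adjusted p ran from 0.092 to 0.92 over the alternatives, so that no setting called it. Because of the sequence that the pair shares, Csf2rb and Csf2rb2 were also summed, which gave 141, 142, 90.3 and 114 CPM in HFD and 75.9, 107, 111 and 95.4 CPM in CF. These ranges overlapped, with a log2 fold change of 0.32 (SE 0.18, 95% interval -0.09 to 0.73, edgeR adjusted p = 0.74).

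Genes of plasmacytoid DCs had a similar order of libraries to Csf2rb2. The summed CPM of 7 such genes (Siglech, Bst2, Tcf4, Ccr9, Spib, Cox6a2 and Ly6d) was 201, 386, 329 and 472 in HFD and 197, 255, 232 and 197 in CF. HFD replicates 2 and 4 were the highest for both Csf2rb2 and the list, and CF replicates 1 and 4 the lowest for both. All 7 genes had higher estimates in HFD, at a median of 1.22 on the log2 scale. An unadjusted p below 0.05 by edgeR was found for 5, against 8.56% of all genes, but 0 were called. With HFD replicate 1 left out, 5 of the 7 were called as higher by edgeR, namely Siglech, Ccr9, Spib, Cox6a2 and Ly6d, whereas Csf2rb2 was not. Of all genes, 0.214% were called as higher in that setting, and 1.26% in either direction. With all libraries, Spib (1.40, edgeR adjusted p = 0.11) and Ccr9 (1.56, adjusted p = 0.14) had the lowest p. Their part in the Csf2rb2 values was not tested.

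Csf3r had the widest range of the members. It had 200, 38.2, 34.1 and 15.7 CPM in HFD and 44.4, 107, 141 and 123 CPM in CF. HFD replicate 1 was above every CF library and the other HFD libraries were below every CF library. The means were 72.0 ± 85.9 and 104 ± 41.9 CPM (SD, n = 4 each), with a log2 fold change of -0.53 (SE 0.74, 95% interval -2.23 to 1.17, edgeR adjusted p = 0.93). The libraries spanned 12.8-fold, and the coefficient of variation, 70.1%, was higher than that of 95.3% of genes. Without HFD replicate 1 the log2 fold change was -1.83 (adjusted p = 0.11), and without HFD replicate 4, the lowest, it was -0.24. Without both replicates numbered 1 it was -2.08 and passed the test (adjusted p = 0.017), as the 1 call of a member in any setting, but these libraries were left out because their values were known to stand apart. In that setting edgeR called 2.45% of all genes, and 2.21% as lower in HFD.

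Csf3r, Csf2ra and Csf2rb followed the neutrophil genes over the libraries. The order of libraries for Csf3r was close to that of the neutrophil list, with HFD replicate 1 highest and HFD replicate 4 lowest in both. Pearson's r between log2 CPM of the member and the log2 of the summed list was 0.94 for Csf3r, 0.95 for Csf2ra and 0.89 for Csf2rb, and -0.85 for Flt3 (a description over 8 libraries of both diets, which share HFD replicate 1 as an extreme point). Without that library r was 0.93 for Csf3r, 0.97 for Csf2ra, 0.78 for Csf2rb and -0.77 for Flt3. With all 8 it was between -0.51 and 0.30 for Csf1r, Kit, Ly6a, Csf2rb2 and Il3ra, although without HFD replicate 1 it was 0.72 for Csf1r. Between members, r was 0.94 for Csf2ra with Csf3r and -0.91 for Flt3 with Csf2rb (0.92 and -0.92 without HFD replicate 1). All 14 neutrophil genes were tested and 0 were called, 13 with higher estimates in HFD and with a median of 0.34, among them Camp (0.65, edgeR adjusted p = 0.93) and Cd177 (0.60, adjusted p = 0.94). That direction came from HFD replicate 1. Without it, all 14 had lower estimates in HFD, with a median of -1.46 and 11 at an unadjusted p below 0.05 by edgeR, and 0 were called. Of all genes, 9.76% were lower at that unadjusted p in that setting. Camp was then at -1.15 and Cd177 at -1.39.

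The sum of 7 monocyte genes moved in a similar order, but the single genes did not all follow it. The 7 listed (Lyz2, Fn1, Ly6c2, Ccr2, F13a1, Ms4a6c and Cx3cr1) summed to 2485, 1040, 384 and 610 CPM in HFD and 724, 1481, 1168 and 996 CPM in CF. By this sum HFD replicate 1 was again highest and HFD replicate 3 lowest. Lyz2 alone had 1709 CPM in HFD replicate 1. Lyz2, Fn1 and Ly6c2 were highest in that library. Ms4a6c was lowest there (53.3 CPM), and Ccr2 had 70.3 CPM there against 103 to 118 CPM in CF. F13a1 and Cx3cr1 were highest in CF replicate 2. Over the 8 libraries r with the sum of the 7 genes was 0.79 for Csf3r, 0.90 for Csf2ra, 0.91 for Csf2rb and -0.89 for Flt3. Without HFD replicate 1 it was 0.70, 0.90, 0.84 and -0.93. For Csf1r it was 0.47 with all libraries and 0.95 without that one. A lineage-negative gate is meant to remove mature neutrophils. RNA of neutrophils or monocytes in the sorted cells and expression in CDPs cannot be told apart for these receptors.

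**Figure D2:**
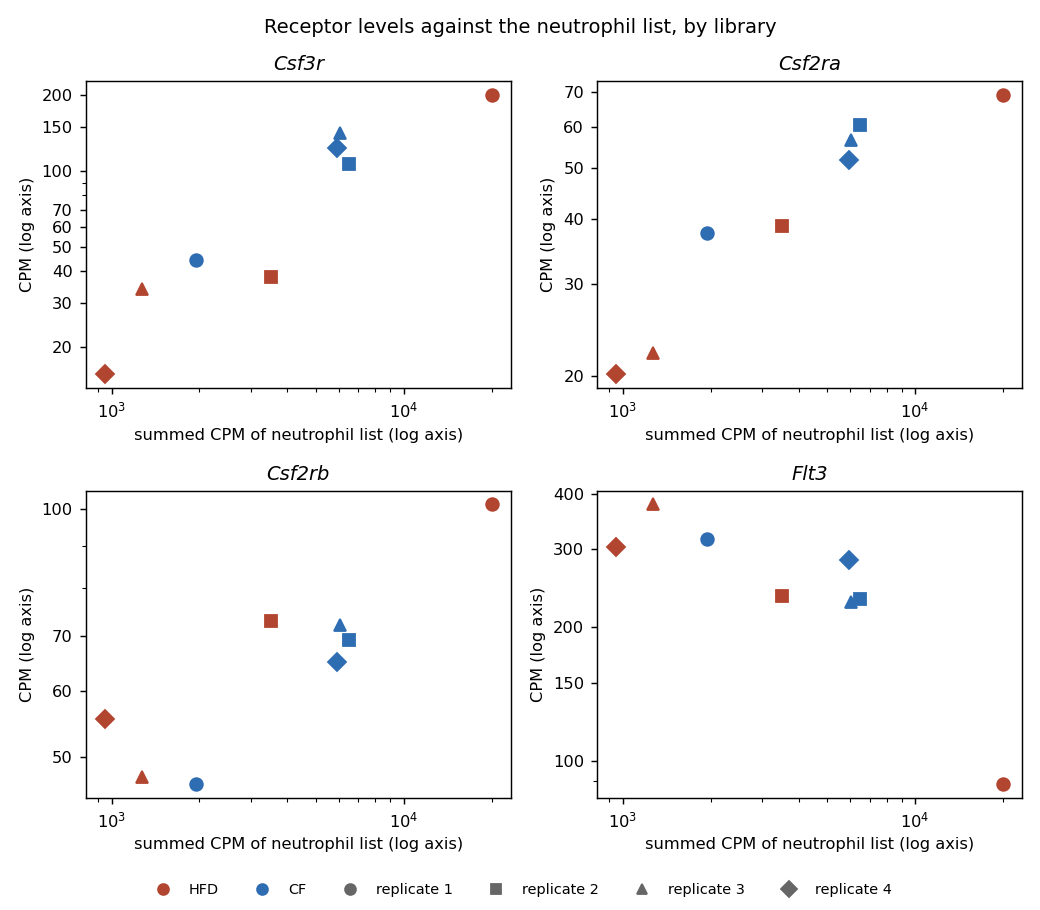
CPM of Csf3r, Csf2ra, Csf2rb and Flt3 (log axis) against the summed CPM of 14 neutrophil genes (log axis) in the 4 HFD (red) and 4 CF (blue) libraries, with marker shapes for the replicate number. HFD replicate 1, at 20026 CPM of the list, has the highest Csf3r (200), Csf2ra (69.1) and Csf2rb (101) and the lowest Flt3 (88.8).

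Short stretches of the promoters were read for the core letters of PU.1, a factor known to bind genes of myeloid receptors. The RefSeq table of promoters (GRCm38.p6) held 6 members, and Csf1r, Ly6a and Csf2rb had no entry. The letters GAGGAA or TTCCTC occurred in the 250 bases before the start in 23.3% of 32851 promoters. Csf2ra, Csf3r, Csf2rb2 and Kit held them, and Flt3 and Il3ra did not. The 30 bases around the match are shown for the 3 cytokine receptor genes, with the matches in capitals.
Csf2ra: ttcccaacctgcagatGAGGAAGAGGAAgc
Csf3r: caacctccttcctgaGAGGAAggggctgtc
Csf2rb2: gccctctgtgtctgcTTCCTCcagagaagt
They lie at chr19:61228419-61228448 (-), chr4:126024558-126024587 (+) and chr15:78305874-78305903 (-), before the starts that RefSeq gives. In GENCODE, which has longer transcripts, the Csf3r stretch lies inside the gene and that of Csf2ra overlaps its first bases. Csf2ra had 2 adjoining matches, which begin 14 and 8 bases before the start, Csf3r had 1 at 86 bases and Csf2rb2 1 at 167 bases. The letters TGTGGT of RUNX (in 14.0% of promoters, either strand) and TTGCGCAA of C/EBP (0.164%) occurred in none of the 6. A match is a run of letters, and binding was not measured.

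When read counts were divided by exon length, Flt3 had the highest level. The mean of the 8 libraries, in CPM per kb of exons, was 41.8 ± 13.8 for Flt3, 24.3 ± 18.0 for Csf3r, 18.4 ± 2.84 for Csf1r and 15.5 ± 6.23 for Csf2ra (SD, n = 8). The beta chains Csf2rb2 and Csf2rb followed at 9.15 ± 2.85 and 9.10 ± 2.43, and Kit at 5.07 ± 0.82. The lowest were Il3ra at 2.46 ± 0.48 and Ly6a at 2.17 ± 0.49. Of the 8 pairs of neighbours in this order, 2 differed in the same direction in all 8 libraries and by more than the SD of their log2 ratio. These were Csf2rb above Kit and Kit above Il3ra. The other neighbours did not differ beyond their spread, including Flt3 and Csf3r, since the ratio of Flt3 to Csf3r was 0.260 in HFD replicate 1. With the length of the longest transcript in place of all exons, Csf2rb was at 13.5 and ranked above Csf2rb2, Kit was at 8.63, close to the 9.15 of Csf2rb2, and Flt3 was at 65.3. The order of the other members was the same by both lengths.

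**Figure D3:**
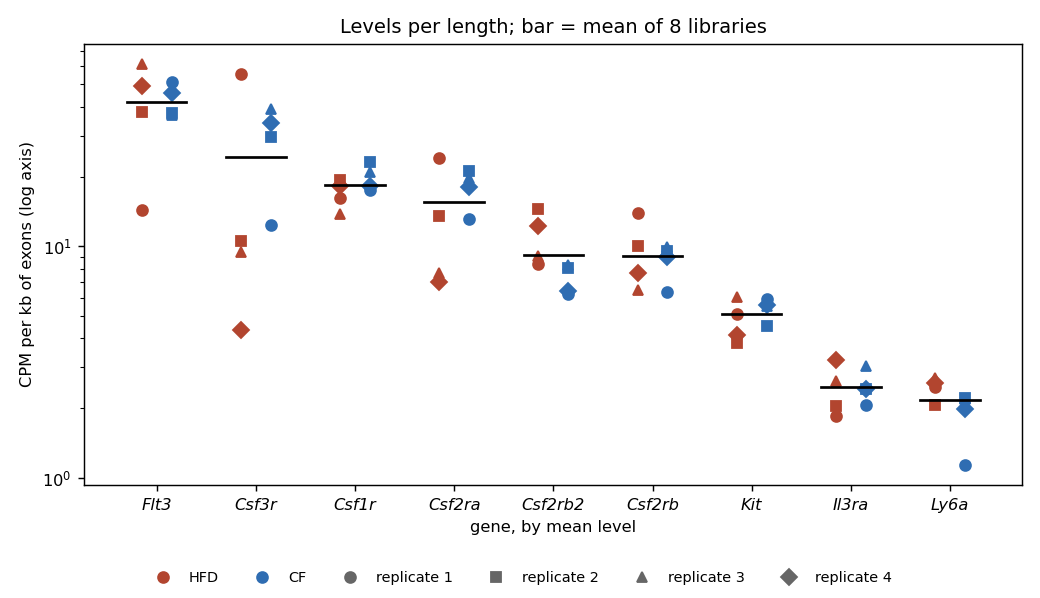
CPM per kb of exons (log axis) of the 9 genes, ordered by mean, in the 4 HFD (red) and 4 CF (blue) libraries, with marker shapes for the replicate number and a black bar for the mean of 8. Flt3 (41.8) is at one end and Ly6a (2.17) at the other, and Csf3r has the widest scatter.

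Ratios of receptors within a library do not depend on how libraries are scaled, and 8 of them were compared between the diets by two-sided exact permutation tests. With 4 libraries against 4, the smallest p that this test can give is 0.029. The ratio of alpha to beta chain of the GM-CSF receptor, Csf2ra to Csf2rb per kb, was 1.73, 1.34, 1.18 and 0.919 in HFD and 2.05, 2.22, 1.99 and 2.01 in CF. All HFD libraries, including replicate 1, were below all CF libraries, and CF varied little. On the log2 scale the ratio was 0.33 ± 0.38 in HFD and 1.05 ± 0.070 in CF (SD, n = 4 each), a difference of -0.71 (exact p = 0.029, adjusted p = 0.23 over the 8 ratios). A single ratio at the smallest exact p cannot fall below this adjusted p among 8, so the adjusted value says nothing about the size of the difference. The difference was between -0.87 and -0.56 when any 1 replicate was left out.

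The ratio of the 2 beta chains, Csf2rb2 to Csf2rb, was 0.606, 1.44, 1.40 and 1.61 in HFD and 0.978, 0.847, 0.835 and 0.713 in CF. HFD replicates 2 to 4 were above every CF library and HFD replicate 1 below every one, for a log2 difference of 0.50 (exact p = 0.14, adjusted p = 0.38), or between 0.35 (without HFD replicate 4) and 0.82 (without HFD replicate 1) when any 1 replicate was left out. For Ly6a to Kit, the pair of graded markers of the gate, log2 ratios were -0.94 ± 0.20 in HFD and -1.55 ± 0.58 in CF (SD, n = 4 each). The difference was 0.61 (exact p = 0.086, adjusted p = 0.34), or between 0.34 (without CF replicate 1) and 0.78 when any 1 replicate was left out.

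The ratios among Flt3, Csf1r and Kit had differences near 0 with all libraries, but each moved with single libraries. Flt3 to Csf1r had a log2 ratio of 1.10 ± 0.98 in HFD and 1.10 ± 0.40 in CF (SD, n = 4 each, exact p = 1.00). Linear values ran from 0.887 in HFD replicate 1 to 4.45 in HFD replicate 3, and from 1.63 to 2.92 in CF. Kit to Flt3 was -2.93 ± 0.97 and -2.99 ± 0.17 (exact p = 1.00), and Kit to Csf1r -1.83 ± 0.51 and -1.89 ± 0.34 (exact p = 0.86). The SD of Kit to Flt3 was larger in HFD owing to replicate 1, at -1.49 against -3.57 to -3.31 in the other HFD libraries. Without that library the difference was 0.42 for Flt3 to Csf1r, -0.42 for Kit to Flt3 and 0.0024 for Kit to Csf1r. Without HFD replicate 3 that of Flt3 to Csf1r was -0.35 and that of Kit to Csf1r -0.15, and without HFD replicate 2 the latter was 0.23. Il3ra to Csf2ra (difference 0.57, exact p = 0.37, adjusted p = 0.59) and Csf3r to Csf1r (-0.84, exact p = 0.31, adjusted p = 0.59) overlapped between the diets. These differences were 1.05 and -1.57 without HFD replicate 1, and 0.19 and -0.29 without HFD replicate 4. That of Il3ra to Csf2ra was 0.33 without HFD replicate 3.

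**Figure D4:**
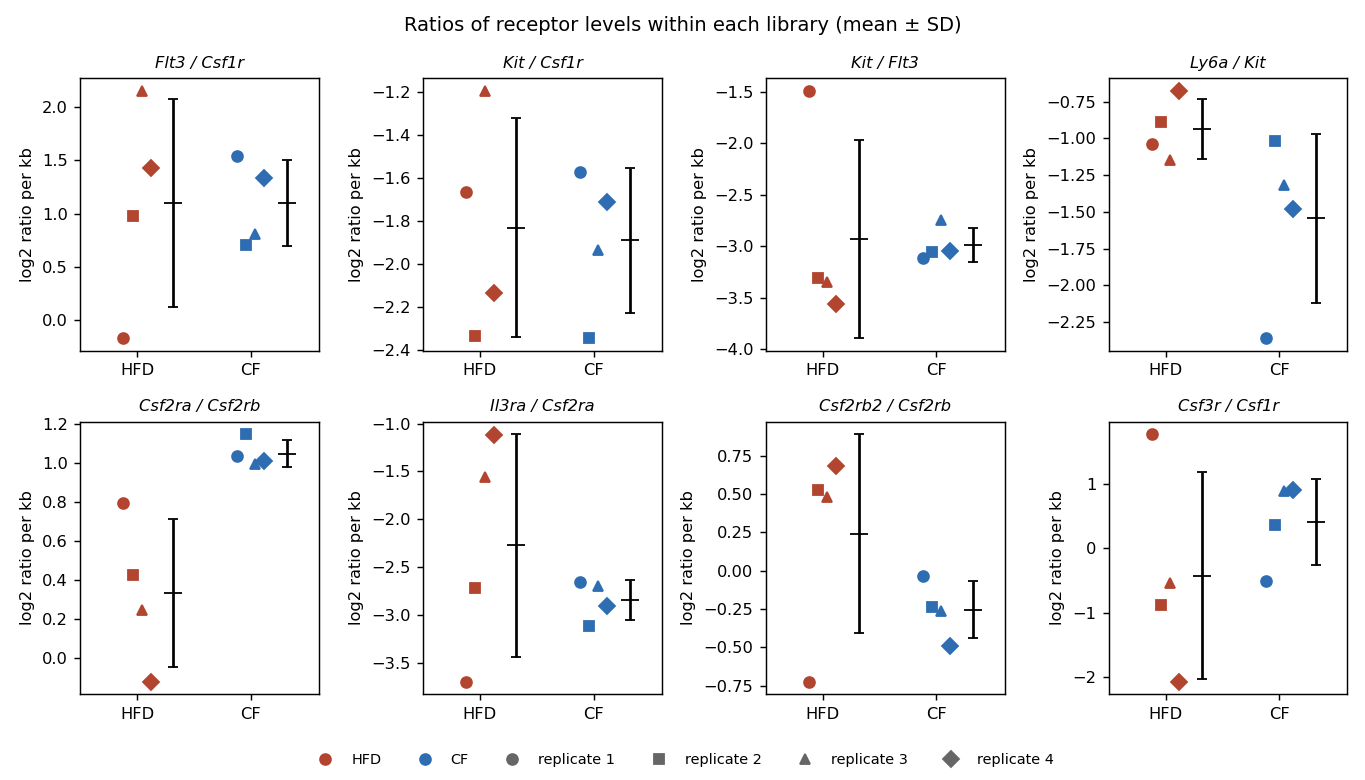
Log2 ratios of the levels per kb of 8 pairs of receptor genes within each library, for the 4 HFD (red) and 4 CF (blue) libraries, with marker shapes for the replicate number and black bars for the mean ± SD. The diets do not overlap for Csf2ra to Csf2rb alone (HFD -0.12 to 0.79, CF 0.99 to 1.15).

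The intervals show which sizes of change the data could not separate from 0. That of Csf2rb2 did not include 0 before adjustment for multiple tests, and those of the other 8 members did. For Csf1r and Kit the intervals reached no further than -0.56 and -0.53, so that a halving of either was outside the 95% interval. For Csf3r the interval ran from -2.23 to 1.17, and for Csf2ra from -1.33 to 0.41. Leaving out 1 replicate turned the sign of Flt3, Csf2rb and Il3ra, whereas Csf1r, Kit, Ly6a, Csf2ra, Csf2rb2 and Csf3r kept theirs.

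**Figure D5:**
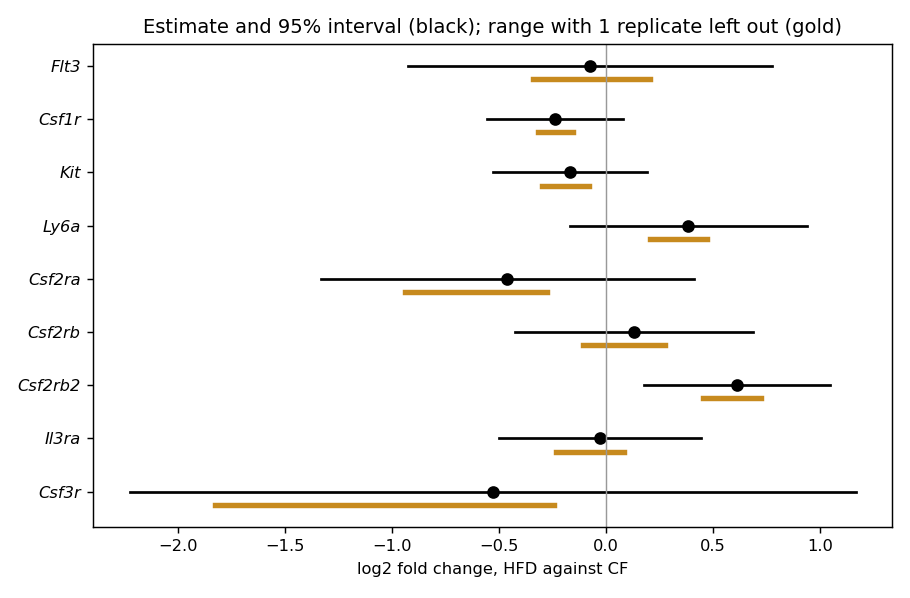
Log2 fold change of HFD against CF for the 9 genes (black points) with 95% intervals (black lines), and the range of estimates with 1 replicate left out at a time (gold). Only the interval of Csf2rb2 (0.18 to 1.05) lies to one side of 0, and Csf3r has the widest interval and gold range (-1.83 to -0.24).

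The ligands of these receptors were scarce in the sorted cells. Of 8 listed, Il34, Csf2, Il3, Il5 and Csf3 were not among the genes of the table, and Flt3l, Csf1 and Kitl were tested and not called. Flt3l had 1.99 ± 0.78 CPM in HFD and 1.77 ± 0.62 CPM in CF (SD, n = 4 each), and Kitl, the ligand of c-Kit, 0.93 ± 0.37 and 0.29 ± 0.23 CPM (log2 fold change 1.68, edgeR adjusted p = 0.63). Of 23 other cytokine receptor chains tested, 0 were called, 14 had higher estimates in HFD, and the median was 0.05. Lifr, the receptor chain for LIF, had the lowest p and did not overlap, with 44.3, 91.9, 53.7 and 96.9 CPM in HFD and 38.5, 41.8, 42.1 and 37.6 CPM in CF (log2 fold change 0.84, edgeR adjusted p = 0.23). Lifr was at 1.02 and was called when HFD replicate 1 was left out (edgeR adjusted p = 0.042). As for Csf2rb2, its highest libraries were HFD replicates 2 and 4. Epor, the erythropoietin receptor, came next (2.29, adjusted p = 0.44), with 9.34 CPM in HFD replicate 1 and 0.390 to 2.55 CPM in the others, and it was at 0.99 without that library.

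None of the signal transducers downstream of the members passed the test. Of 25 receptor-proximal kinases, adaptors and STATs (Jak2, Lyn, Grb2, Stat5a and others), 0 were called and 0 had an unadjusted p below 0.05, with 18 higher in HFD and a median of 0.07. Of all protein-coding genes tested, 7612 of 11775 were higher in HFD. Without HFD replicate 1, 14 of the 25 were higher and 11 lower, with a median of 0.0016. Stat5b, which GM-CSF and IL-3 signals activate, had the lowest p (0.22, edgeR adjusted p = 0.74), followed by the adaptor Gab2 (-0.23, adjusted p = 0.77). Of 21 negative regulators, 0 were called, 15 were higher with a median of 0.09, and 4 had an unadjusted p below 0.05, against 8.56% of all genes. Socs2, an inhibitor induced by STAT5, had 0.738, 0.378, 0.367 and 0.607 CPM in HFD and 2.17, 1.21, 1.39 and 1.01 CPM in CF, with every HFD library below every CF library (log2 fold change -1.46, edgeR adjusted p = 0.16). Dusp6, the phosphatase of ERK, had 30.4, 17.5, 23.9 and 20.6 CPM in HFD and 15.9, 15.2, 13.7 and 14.2 CPM in CF, also without overlap (0.65, adjusted p = 0.17). Of 10 transcription factors known to act at the receptor genes, 0 were called and 6 were higher, with a median of 0.04. Ikzf1 (Ikaros) had the lowest p and no overlap (0.27, edgeR adjusted p = 0.55), Cebpa came next (-0.37, adjusted p = 0.80), and Spi1, which encodes PU.1, had -0.02.

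The label of the cells was compared with surface markers and lineage genes. The transcripts of all 4 positive or graded gate markers were detected in each library. Of 6 other progenitor markers tested, 0 were called and 2 were higher (median -0.03). Cd34 had the same extremes as Flt3, 23.4 CPM in HFD replicate 1 and 108 CPM in HFD replicate 3 (log2 fold change -0.30, or -0.02 without HFD replicate 1, edgeR adjusted p = 0.92 with all libraries). Il7r did likewise, with 26.3 and 102 CPM (0.48, or 0.74 without HFD replicate 1, edgeR adjusted p = 0.82 with all libraries). Genes of 13 antigens of mature lineages were also examined, since the cells were sorted as lineage-negative. The study's methods do not list the antigens of the cocktail. These genes were not absent. They summed to 364, 231, 135 and 142 CPM in HFD and to 148, 244, 168 and 186 CPM in CF, mostly from Itgam (CD11b) and Itgax (CD11c), while Cd3e and Cd3g were too low to be tested. Of 11 tested, 9 had higher estimates in HFD (median 0.76). An unadjusted p below 0.05 by edgeR was found for 4, against 8.56% of all genes, and 0 were called. Cd79a (0.88, edgeR adjusted p = 0.17) and Cd4 (1.87, adjusted p = 0.41) were lowest in p. Cd4 was near the floor, with 4 to 80 counts per library. Without HFD replicate 1 the median was 0.41, and Itgax was called.

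Of the other cell type lists, all 10 erythroid genes were higher in HFD (median 0.95, 0 called, Epor and Car1 lowest in p), and HFD replicate 1 set the upper end. Without it, 7 of 10 were higher and the median was 0.05. The 9 conventional DC genes had 3 higher estimates and a median of -0.34, with Id2 (-0.45, edgeR adjusted p = 0.42) and Zbtb46 (-0.34, adjusted p = 0.61) lowest in p. The 7 monocyte genes (median -0.15, or -0.37 with 6 of 7 lower without HFD replicate 1, Ccr2 and F13a1 lowest in p) and 5 stem and multipotent progenitor genes (median -0.30, Meis1 and Hoxa9 lowest in p) had 3 and 2 higher estimates. None of these genes was called with all libraries. Their part in the receptor values was not tested.

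For each member, the 3 protein-coding genes whose log2 CPM followed it most closely over the 8 libraries were sought among 11774. These correlations are descriptions, since the points share 1 extreme library and the diets. Flt3 was most like H2afy (macroH2A1), with r of 0.995, Cd93 (0.99) and Slc27a1 (0.99). Csf3r was most like Asprv1, Ddx60 and Cd101 (each at least 0.99), and Csf2ra like Tgfbi, Sirpb1c and Plekhg1 (each 0.99). Csf2rb was closest to Ccdc186, H2-T24 and Slc38a5 (each 0.99). Among the genes closest to Csf1r were the phosphatidylserine-binding Anxa5 (0.96) and Rassf4 (0.95). Kit was most like Usp48 (0.96), Dock9 (0.96) and Adgrg7 (0.94), and Csf2rb2 like Eif5a2 (0.97), Iffo1 (0.96) and Casp8ap2 (0.95). For the 2 members with the fewest counts the closest were Chtf8, Lrrc56 and Homez for Ly6a (0.97, 0.97 and 0.96) and Irf3, Polr2i and Prpf4 for Il3ra (0.94, 0.93 and 0.93). Kit and Csf2rb2 ran in opposite directions over the libraries (r = -0.81).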

How the data were processed

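RNA was amplified with the NuGEN Ovation Solo system. The authors aligned reads with HISAT2 on GRCm38 and counted them with StringTie, and the deposited file holds raw counts per gene. The annotation release and the strand used in counting are not given in the sources used here. Its columns were matched to replicates by the sample number in the labels. Names, exons and coordinates came from GENCODE vM21, in which 16067 of the 16119 genes were found.

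Counts were filtered by filterByExpr (282 genes left out), scaled by TMM factors and compared with edgeR 4.0.16 in R 4.3.3 (robust quasi-likelihood test, diet as the only term, Benjamini-Hochberg adjustment over all genes tested, threshold 0.05). Levels per kb used all annotated exon bases, ratios had 0.5 counts added, log2 CPM had a prior count of 2, and exact tests covered 70 ways to draw 4 of 8 libraries. Alternatives were DESeq2 1.42.0, voom of limma 3.58.1, RLE factors, no scaling factor beyond the library size, other filters, protein-coding genes alone, the replicate number as a block, each replicate left out, both replicates numbered 1 left out, Csf2rb and Csf2rb2 summed, 0 or 5 counts added, and the longest transcript. The fits were tested on simulated data. The members, lists and ratios were chosen with earlier results of these data known. Genes named are the members, the 2 lowest in p of each list and the 3 most alike each member, and Ly6g, Spi1, Flt3l, Kitl, Cd3e and Cd3g and the genes that spell out a list were named besides. A gene that this rule names is left out here.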

Additional observations from a re-analysis of the deposited data

Results flagged for a closer look

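In 34 groups of 4 libraries (each member's log2 CPM and each ratio, per diet), 3 had 1 library far from the others by Dixon's test at the 95% level, which chance gives in about 1 of 20 groups. Ly6a in CF replicate 1 had a log2 CPM of 0.51, against 1.29 to 1.45 in the other CF libraries. The log2 ratio of Kit to Flt3 in HFD replicate 1 was -1.49, against -3.57 to -3.31 in the other HFD libraries. The log2 ratio of Csf2rb2 to Csf2rb in HFD replicate 1 was -0.72, against 0.48 to 0.68.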

How the results depend on the processing

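The count of genes called, 67, was 68 with RLE size factors, 70 with limma voom, 67 without a filter and 76 with a filter of 1 CPM in 4 libraries. It was 108 with library size alone (98 lower and 10 higher in HFD), 567 with DESeq2 (503 lower and 64 higher), 0 with protein-coding genes alone (537 at an unadjusted p below 0.05), 0 to 200 with 1 replicate left out (200 without HFD replicate 1 and 154 without CF replicate 4, and 0 to 2 without each of the others) and 388 without both replicates numbered 1. The replicate block gave 0 calls by edgeR (911 at an unadjusted p below 0.05) and moved Csf3r to -1.30 and Csf2ra to -0.65. Same-numbered libraries correlated at -0.44 to -0.08 in their deviations, so the numbers pair nothing. Members called were 0 in all settings but 1, the removal of both replicates numbered 1, with 1 (Csf3r).

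Of the fold changes, library size alone turned Flt3 to 0.13, Kit to 0.021 and Il3ra to 0.16, as it raised the median of all genes from 0.05 to 0.25. Leaving out 1 replicate gave -0.34 to 0.21 for Flt3, -0.11 to 0.28 for Csf2rb and -0.24 to 0.084 for Il3ra. Without both replicates numbered 1, Flt3 was 0.30, Csf2rb -0.23 and Il3ra 0.0042. The causes were not tested. Of the lists, medians that turned sign without HFD replicate 1 (an alternative chosen after seeing the data) were -1.46 for neutrophil genes, 0.18 for Pdgfrb, -0.11 for ligands, -0.019 for other cytokine receptor chains, -0.17 for transcription factors, 0.088 for progenitor markers and -0.080 for Ly6 genes. Within-number differences cannot give an exact p below 0.125, and the ratios with replicates left out were not tested. Depth limits Ly6a (53 counts at the lowest) and Il3ra most.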
